A study of Mus musculus and Rattus norvegicus with 2 samples.

Results

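The 5.8S ribosomal RNA (rRNA) fragments of caput epididymal sperm are described here as every listed sequence whose matched entry was the Rfam family of 5.8S rRNA. The family held 458 of 914516 distinct sequences in mouse, with 5261 of 11760708 listed reads, and 2962 of 650877 in rat, with 65990 of 14652889 listed reads. Together these were 3104 distinct sequences. Small RNA of 18 to 45 nt was selected from total RNA of purified sperm taken from the caput, the head of the epididymis. The mouse library came from C57BL/6 animals aged 2 months and the rat library from Sprague Dawley young adults of 450 g. Neither carried an allele or treatment in the labels, and the number of animals behind each library is not given in the sources used here. With 1 library per species, species and library cannot be told apart and no test between them was possible. Intervals in parentheses are exact 95% intervals that cover counting error only.

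The 5.8S rRNA is a short RNA of the large ribosomal subunit, where it base-pairs with 28S rRNA. It is cut from the same long precursor as 18S and 28S rRNA and lies between the internal transcribed spacers of that precursor, whereas 5S rRNA has genes of its own. Its 5′ end is formed in more than 1 way, so that cells hold a short and a long form that differ by a few bases. Fragments of rRNA, including 5.8S, are found among the small RNAs of mammalian sperm beside tRNA fragments.

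Positions are given on a 5.8S sequence of 156 bases assembled from the rat reads. Base 1 is the most frequent first base of rat reads on it, and base 156 the most frequent last base near its 3′ side. Listed mouse reads covered all 156 bases, and at 0 of them did the most frequent mouse base differ. The sequence is shown because every value below is placed on it, with bases 57 to 81 in capitals, the stretch that both libraries shared at high counts.
5.8S sequence: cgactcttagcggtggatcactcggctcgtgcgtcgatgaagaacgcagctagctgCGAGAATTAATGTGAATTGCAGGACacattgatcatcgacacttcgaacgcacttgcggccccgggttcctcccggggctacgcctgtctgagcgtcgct

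The 5 leading mouse sequences came from the interior of the molecule. Capitals mark bases 57 to 81.
Mouse, bases 57 to 81: CGAGAATTAATGTGAATTGCAGGAC
Mouse, bases 58 to 81: GAGAATTAATGTGAATTGCAGGAC
Mouse, bases 103 to 122: aacgcacttgcggccccggg
Mouse, bases 56 to 81: gCGAGAATTAATGTGAATTGCAGGAC
Mouse, bases 103 to 123: aacgcacttgcggccccgggt
The 5 leading rat sequences all began at base 2 and differed only in length. Capitals mark the bases up to base 18.
Rat, bases 2 to 29: GACTCTTAGCGGTGGATcactcggctcg
Rat, bases 2 to 26: GACTCTTAGCGGTGGATcactcggc
Rat, bases 2 to 27: GACTCTTAGCGGTGGATcactcggct
Rat, bases 2 to 28: GACTCTTAGCGGTGGATcactcggctc
Rat, bases 2 to 30: GACTCTTAGCGGTGGATcactcggctcgt

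Reads under the 5.8S entry took a larger share of the rat library than of the mouse library. They were 0.450% of listed rat reads (0.447 to 0.454) and 0.0447% of listed mouse reads (0.0435 to 0.0460), which is 10.1-fold, or a log2 ratio of rat over mouse of 3.33 (3.29 to 3.37). Among reads under the 3 rRNA families of Rfam, 5.8S was 13.1% in rat (13.0 to 13.2) and 1.51% in mouse (1.47 to 1.55), a log2 ratio of 3.12. The other 2 families differed less between the libraries. 5S rRNA was 2.15% of listed rat and 1.29% of listed mouse reads, a log2 ratio of 0.74, and 18S rRNA was 0.835% and 1.63%, a log2 ratio of -0.97. The intervals of the 3 ratios over listed reads did not overlap. Among the 144 Rfam families whose summed count reached 100 reads, 29.9% were at least 2-fold higher in rat and 51.4% at least 2-fold lower. In order of that ratio 5.8S was number 26. The size of the 5.8S ratio depended on which stretch of the molecule was counted: over reads that began past base 11, the log2 ratio was 1.42 (1.37 to 1.46).

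The stretches counted were set in part by the matched entries, which differed between the libraries. In mouse only 2 entries held all 5261 reads. With the recorded mismatches undone, 2201 reads lay within Gm24601, an annotated rRNA copy of 143 bases on chromosome 6 (94826781 to 94826923, minus strand, GRCm38, the build of the annotation used here). The other 3060 lay within a further annotated copy, n-R5-8s1. Both copies differ from the 5.8S sequence, and only 4 mouse reads (0.0760%) matched their entry without a mismatch, compared with 2302 (43.8%) at 1 mismatch and 2955 (56.2%) at 2. Against the 5.8S sequence above, 99.3% of the same mouse reads were exact. The leading mouse read shows this. It is printed here beside the stretch of Gm24601 at chr6:94826854-94826878 (minus strand, GRCm38), with the differing base in capitals, A12G counted from the 5′ end of the stretch with the base of the copy first.
Gm24601 stretch: cgagaattaatAtgaattgcaggac
Mouse read, bases 57 to 81: cgagaattaatGtgaattgcaggac

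The copy n-R5-8s1 is 148 bases long and lies on chromosome 18 (73533403 to 73533550, minus strand, GRCm38). In rat 10 entries held the reads, and the leading one had 55327 of them (83.8%). Its reads lay between base 2 and base 81, and 90.5% of all rat reads matched their entry exactly. In 5S rRNA, 44.5% of mouse and 90.9% of rat reads were exact to their entry, and in 18S rRNA 89.0% and 21.9%. Of the 3 families, 5.8S thus had the lowest share of exact reads in mouse. Of 139 stretches of 18 bases in the 5.8S sequence, 84 (60.4%) occur in either mouse copy without a gap and with at most 2 mismatches, and these reach from base 12 to base 151. The mouse reads under the entry reached from base 12 to base 151 as well. Longer stretches were held less often. At 25 bases 42 of 132 (31.8%) occur, reaching from base 15 to base 130. At 30 bases 30 of 127 (23.6%) occur, reaching from base 15 to base 104. Bases 12 to 151 were thus not equally open to mouse reads of every length. None of the matched stretches began at bases 1 to 4, so that an exact mouse read from the 5′ end lies outside what these entries hold at 2 mismatches. What could be listed under the entry therefore differed between the libraries, and this cannot be told apart from the species in the shares under the entry.

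**Figure D1:**
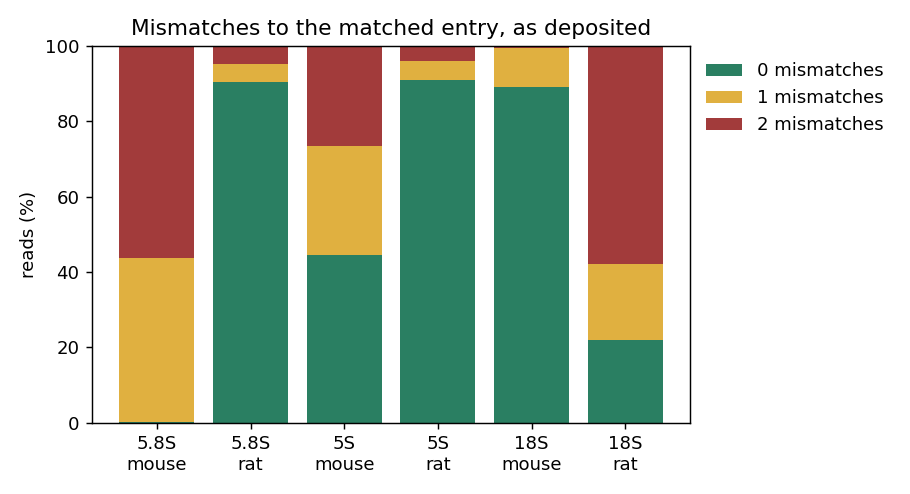
Percent of reads (vertical axis) with 0, 1 or 2 mismatches to the matched entry, as the authors recorded them, for the 5.8S, 5S and 18S rRNA families in the mouse and the rat library. For 5.8S the mouse bar holds 0.0760% exact reads and the rat bar 90.5%.

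Fragments from the 5′ end led the rat reads. Of rat reads placed on the sequence, 61.3% began at base 2 (60.9 to 61.6) and 6.13% at base 3, and 68.0% began within 3 bases of base 1. No mouse read under the entry began there, where the mouse entries hold no stretch at 2 mismatches, so the nominal limit of 0.0570% from 5261 reads says nothing of such reads in the sample. Coverage in rat was highest at base 19, with 77.0% of reads, and in mouse at base 71, with 54.4%. By the middle of the read, bases 1 to 52 held 85.3% of rat and 6.69% of mouse reads. Bases 53 to 104 held 11.6% and 70.6%, and bases 105 to 156 held 3.12% and 22.7%. With 5.8S reads under every entry counted, the 3 stretches held 68.7%, 16.4% and 14.9% in rat and 14.9%, 55.4% and 29.7% in mouse.

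**Figure D2:**
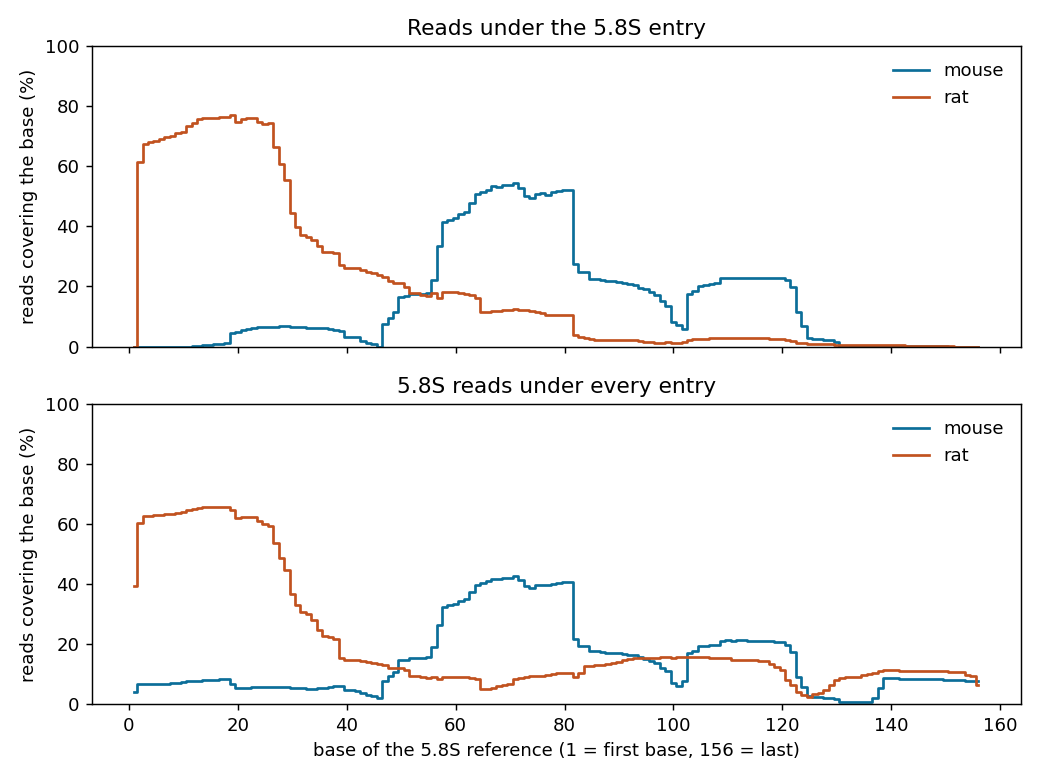
Percent of reads that cover each base of the 5.8S sequence (horizontal axis, 1 to 156), for reads under the 5.8S entry (upper panel) and for 5.8S reads under every entry (lower panel). The rat line is highest near the 5′ end, at base 19 in the upper panel, and the mouse line at base 71 in both panels.

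The rat reads that began at base 2 stopped at a few preferred bases. Of 40413 such reads, 54.2% ended at bases 26 to 30, which makes fragments of 25 to 29 nt. Base 19 had 4.06% and base 31 had 4.15%. A further 7.55% ended at bases 34 and 35, 5.81% at base 38, 2.09% at base 51 and 6.10% at base 64. The fragment ending at base 29 had 6834 reads, the highest count of the family in either library and 10.4% of rat reads under the entry. It was followed by those ending at base 26 with 4597 reads, base 27 with 3749, base 28 with 3403 and base 30 with 2697. None of these 5 sequences was listed in mouse under any entry. Their first base lies outside what the mouse entries hold, and mouse 5.8S reads under other entries were all of 18 to 22 nt, so no fold against mouse is given. Mouse reads that are not listed were not analysed here. The shortest form, of 18 nt, was the 1 with this first base that both libraries listed at over 100 reads each.
Bases 2 to 19: GACTCTTAGCGGTGGATc
It had 1627 reads in rat and 125 in mouse, where it stood under another entry, and its log2 ratio was 3.38 (3.12 to 3.66). Among sequences with at least 1000 reads over both libraries, the lowest ratios were those of bases 58 to 81 at 1.93, of bases 2 to 19, and of bases 2 to 35, which had 1197 rat reads and, at 34 nt, the same limit on its listing in mouse.

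Reads that ended at base 81 were shared by both libraries. They were 25.9% of mouse reads under the entry (24.7 to 27.1), with 1360 reads, and 6.50% of rat reads (6.31 to 6.69), with 4287. The stop was sharp: base 81 had 75.6 times the reads of base 80 and 8 times those of base 82 in mouse, and 59.5 and 10.5 times in rat. Among reads that began past base 11, the part that mouse reads under the entry reached, the shares were 25.9% in mouse (24.7 to 27.1) and 24.5% in rat (23.8 to 25.1). They differed by -1.39 percentage points, rat minus mouse (-2.74 to -0.05). The shares were this close only under the entry. Over reads past base 11 under every entry they were 21.9% in mouse (20.9 to 22.9) and 6.32% in rat (6.14 to 6.50), and over all 5.8S reads 20.2% and 2.25%. All of these mouse reads and 96.8% of the rat reads stood under entries that other reads followed past base 81. The leading rat entry, with 83.8% of rat reads under the family, held no read past that base. A mouse copy holds bases 57 to 82 with 1 mismatch, as many as bases 57 to 81. Whether the entries shaped the stop was not tested.

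The first bases of these fragments differed in weight between the libraries. In mouse 39.9% of reads ending at base 81 began at base 57, 28.5% at base 58 and 15.6% at base 56. In rat 10.8% began at base 57, 43.3% at base 58 and 18.3% at base 56. The fragment of bases 57 to 81 had 535 mouse and 457 rat reads, 45.5 and 31.2 reads per 1000000 listed reads (rpm), a log2 ratio of -0.54 (-0.73 to -0.36). The fragment of bases 58 to 81, shorter by 1 base at the 5′ side, had 385 and 1829 reads, 32.7 and 125 rpm, a log2 ratio of 1.93 (1.77 to 2.09). That of bases 56 to 81 had 210 and 772 reads, a log2 ratio of 1.56 (1.34 to 1.79). The ratios of neighbouring fragments with the same last base thus lay on opposite sides of 0, with intervals that did not overlap.

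**Figure D3:**
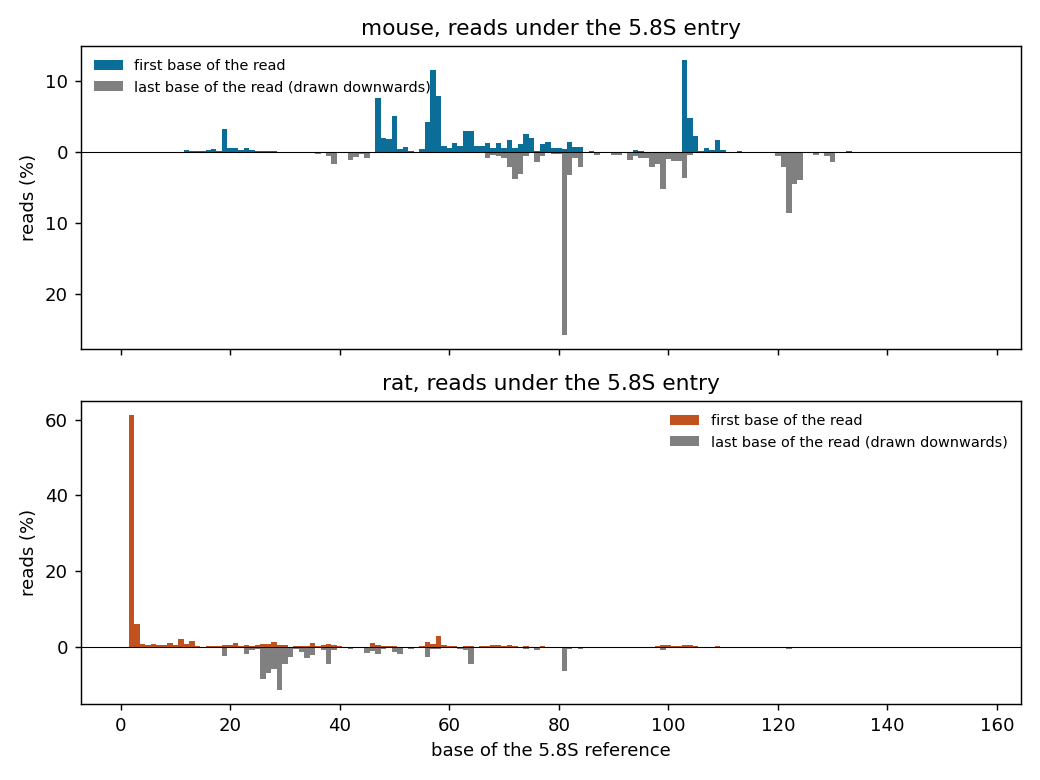
Percent of reads under the 5.8S entry by their first base (upward bars) and last base (downward grey bars) on the 5.8S sequence, with the mouse library above and the rat library below. The mouse panel shows the stop at base 81 with 25.9% of reads, and the rat panel the start at base 2 with 61.3%.

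A further group of mouse fragments came from bases 103 to 124. Reads that began at base 103 were 13.0% of mouse (12.1 to 13.9) and 0.584% of rat reads under the entry, and those that ended at bases 120 to 124 were 19.9% and 1.70%. The leading rat entry held no read past base 81. Under every entry, 8.35% of mouse and 2.39% of rat reads ended at base 122, and 0.892% and 3.56% at base 120. Under the 5.8S entry alone, base 122 had 8.61% and 0.588%, and base 120 had 0.627% and 0.256%. Reads from base 103 were 10.2% of mouse and 0.262% of rat reads under every entry. The fragment of bases 103 to 122 had 295 mouse and 67 rat reads, 25.1 and 4.57 rpm, a log2 ratio of -2.46 (-2.86 to -2.07). That of bases 103 to 123 had 136 and 28 reads, a log2 ratio of -2.60 (-3.24 to -2.00). Among the 67 5.8S sequences with at least 100 reads over both libraries, these were among the 4 at least 2-fold lower in rat. The sharp start at base 103 coincides with a limit of the entries. Bases 103 to 122 have 2 mismatches in a mouse copy and bases 102 to 122 have 3, over the maximum. No mouse read under the entry began at base 102, whereas under other entries 178 did. The start at base 47, with 7.60% of mouse reads, has the same neighbour: bases 47 to 72 have 2 mismatches and bases 46 to 72 have 3. No mouse read began at base 46 under any entry, whereas 656 rat reads did.

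The 3′ end of the molecule was nearly empty under the entry. In rat 6 reads (0.00909%) ended within 3 bases of base 156, and in mouse none did. The stretches held by the mouse entries end at base 151, so no read could be listed there and the nominal limit of 0.0570% does not apply to the sample. The leading one in rat covered bases 135 to 153, with 4 rat reads, and the same sequence had 3 mouse reads under another entry. Capitals mark its last 5 bases.
Bases 135 to 153: ctacgcctgtctgaGCGTC

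Read lengths also differed between the libraries. Under the entry, mouse reads had a median length of 24 nt (quartiles 20 and 26) and rat reads one of 28 nt (quartiles 25 and 35). Mouse reads were most often 25 nt long (14.6%) and rat reads 28 nt (11.7%). Reads of at most 22 nt were 42.3% of mouse (40.9 to 43.6) and 11.7% of rat reads (11.5 to 12.0). Reads over 45 nt, the upper bound of the selected fraction, were 12.3% of rat reads, among them the fragment of bases 2 to 64 with 2342 reads. In mouse 1 read was over 45 nt.

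**Figure D4:**
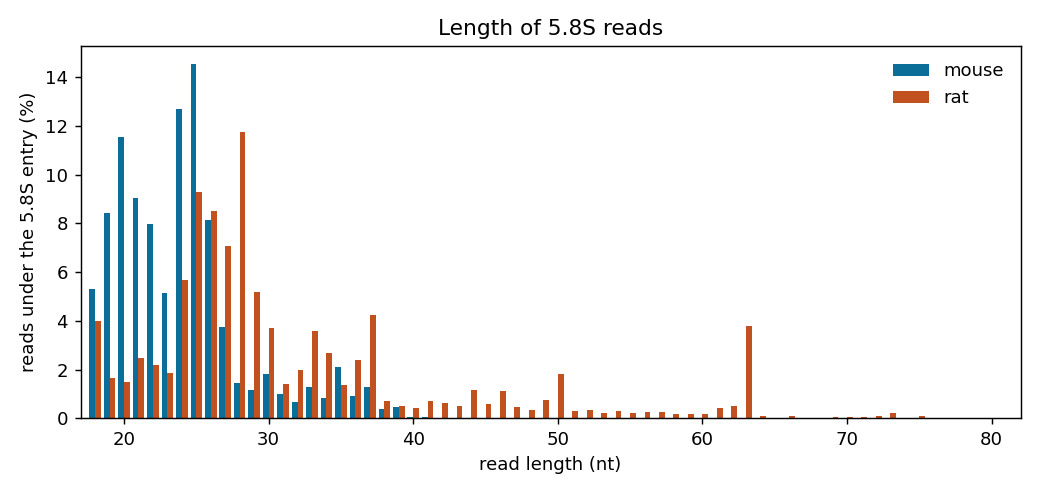
Percent of reads under the 5.8S entry (vertical axis) at each read length in nt (horizontal axis), for mouse and rat. Mouse peaks at 25 nt and at 20 nt, and rat at 28 nt with further peaks at 37, 50 and 63 nt. The mouse entries hold long stretches of the sequence less often than short ones, which limits the comparison.

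A few sequences held much of the family in both libraries. The 5 most abundant held 29.7% of mouse and 32.2% of rat reads. The reads were spread over many rare sequences as well, with 112 mouse and 1378 rat sequences (24.5% and 46.5%) listed with a single read. Sequences under the entry in both libraries numbered 316, which was 69.0% of the mouse and 10.7% of the rat sequences. They carried 88.0% of mouse and 10.3% of rat reads. Of the rat sequences, 3 were on the minus strand, with 1 read each, and of the mouse sequences none.

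Compared sequence by sequence, 67 of the 3104 had at least 100 reads over both libraries, counted under any entry. In rpm with a pseudocount of 0.5 read, 60 of the 67 exceeded the mouse value by 2-fold or more in rat, and 4 fell below it by as much. Of all 9067 listed sequences with that minimum, 56.8% were higher and 30.5% lower. The median log2 ratio was 8.12 over the 67 and 1.97 over all. Of the 67, 49 had no mouse read, so the median rests on the pseudocount. Of all 9067, 2458 had no mouse read and 1333 had no rat read. All 49 were among the 60 counted as higher, and 46 of them were over 22 nt long with more than 2 mismatches to both mouse copies, outside what was listed in mouse. Over the 18 with reads in both libraries, 11 were higher and 4 lower, with a median of 1.74. Among all 5276 sequences with reads in both, 51% were higher and 27.2% lower, with a median of 1.10. These 18 were therefore close to the background in their share of higher sequences. Scaled to 5.8S reads, which lowers every ratio by 3.33 on the log2 scale, none of the 18 stayed higher and 11 were lower. The 49 without a mouse read stayed higher through the pseudocount, so the split over the 67 was 49 higher and 11 lower (81.7% higher, against 93.8% in rpm). The 4 lower in rpm all began at bases 102 or 103.

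Most rat reads with 5.8S sequence stood outside the 5.8S entry. With at most 1 mismatch over their whole length, 125411 further rat reads and 1467 further mouse reads lay on the 5.8S sequence. The entry thus held 34.5% of rat and 78.2% of mouse 5.8S reads. In rat 100848 of the further reads stood under mRNA records, 21706 under rRNA records and 2790 under piRNA records. In mouse 936 stood under rRNA records and 518 under mRNA records. With all of them counted, 5.8S was 1.31% of listed rat and 0.0572% of listed mouse reads, a log2 ratio of 4.51 (4.48 to 4.55). The further mouse reads were 18 to 22 nt long, whereas the further rat reads were 18 to 91 nt long, with a median of 31 nt. Whether matching by the authors set this difference in length was not tested. Over reads of at most 22 nt under every entry, the log2 ratio was 2.03 (1.98 to 2.08).

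The leading forms under other entries are shown because they supply both ends of the molecule. They were chosen after their values were seen. Capitals mark the bases up to base 18 in 5′ fragments and the last 5 bases in 3′ fragments.
Bases 1 to 38: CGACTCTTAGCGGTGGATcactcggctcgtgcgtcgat
Bases 1 to 18: CGACTCTTAGCGGTGGAT
Bases 138 to 156: cgcctgtctgagcgTCGCT
Bases 129 to 156: ccggggctacgcctgtctgagcgTCGCT
The fragment of bases 1 to 38 had 9430 rat reads, more than any sequence under the 5.8S entry. At 38 nt it was longer than the mouse 5.8S reads under other entries, which were of 18 to 22 nt. That of bases 1 to 18 had 278 mouse and 2483 rat reads, a log2 ratio of 2.84 (2.66 to 3.03). The 3′ fragment of bases 138 to 156 had 210 mouse and 638 rat reads, a log2 ratio of 1.29 (1.06 to 1.52), and that of bases 129 to 156 had 1888 rat reads. Both ends of the 5.8S sequence were thus present in the 2 libraries. Under every entry, reads within 3 bases of the 5′ end were 6.79% of mouse (6.20 to 7.42) and 62.7% of rat reads (62.5 to 62.9). Those within 3 bases of the 3′ end were 7.98% (7.34 to 8.65) and 10.7% (10.5 to 10.8). Over reads of at most 22 nt, the 5′ end had 12.4% in mouse and 51.7% in rat, and the 3′ end 14.5% and 21.4%.

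Rat reads from base 1 and from base 2 had the same preferred last bases but in different proportion. No read from base 1 was listed under the 5.8S entry, and all but 2 of the 40415 reads from base 2 were. Of reads from either base, 65.0% began at base 1 (64.8 to 65.3), with 75146 reads. By last base, the share from base 1 was 54.0% at base 26, 54.3% at base 29 and 60.3% at base 64. It was higher at base 34 (74.5%), base 38 (80.7%) and base 51 (70.8%). Reads ending at base 18 all began at base 1, since one from base 2 would be shorter than 18 nt. Over the other 18 last bases with at least 1000 reads, 17 had more reads from base 1, and the share ranged from 48.4% at base 47 to 82.8% at base 25. Reads from base 1 thus ended more often at base 38 (13.0% of them, compared with 5.81% of reads from base 2), and reads from base 2 more often at base 29 (17.2% compared with 10.97%).

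**Figure D5:**
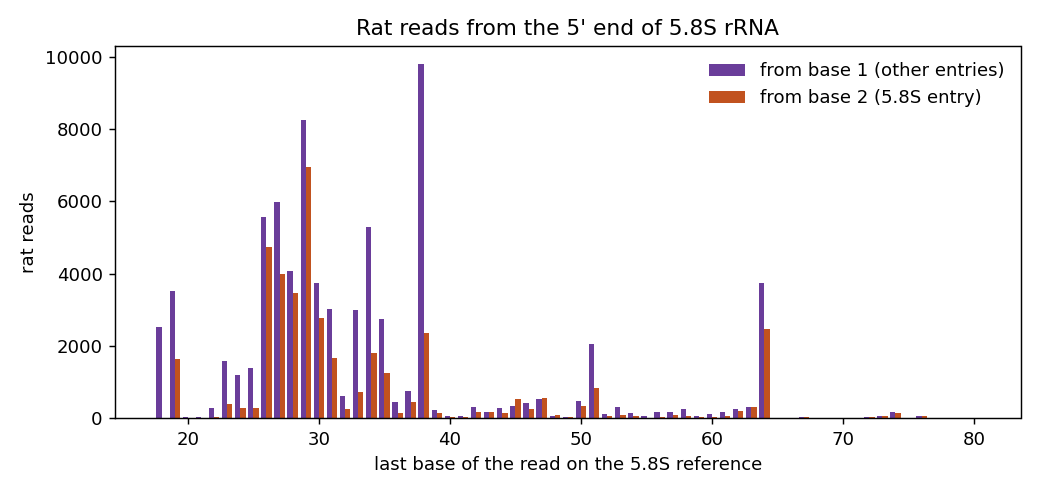
Rat reads (vertical axis) by the last base of the read on the 5.8S sequence (horizontal axis), for reads that begin at base 1, all under other entries, and at base 2, nearly all under the 5.8S entry. Both series peak at bases 26 to 29, 38 and 64, and at base 38 there are 9804 reads from base 1 against 2350 from base 2.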

How the data were processed

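Small RNA reads of 1 mouse and 1 rat library of caput sperm were analysed. The authors deposited whole, unnormalised read counts per distinct sequence, each with 1 matched entry and at most 2 mismatches, per the file headers. Bowtie 0.12.7 is listed as a tool, and mm9 and rn5 as builds, per the submitters' processing notes, which do not say how each was used. How adapters were trimmed and reads filtered is not stated. The closing sum of the mouse table was left out, and sequences on the minus strand were turned to the reverse complement.

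The 5.8S sequence was assembled from all rat reads with words of 17 bases, extended where at least 3 reads gave the next base. Rows under the entry were placed on it without gaps at up to 2 mismatches (16 rat sequences with 19 reads could not be placed), and reads under other entries at up to 1. Mouse copies came from GENCODE vM21, and no rat genome was used. Shares have Clopper-Pearson intervals, ratios of shares conditional binomial intervals and differences Newcombe intervals. All treat reads as independent draws and cover counting error only, since each species has 1 library. PCR reads carry no molecular identifiers, so copies of the same molecule were counted separately and the intervals may be too narrow. A count of 0 allows up to 3 counts. Python 3.11.15 and scipy 1.17.1 were used, and the placement and ratios were tested on simulated data. Named were the 5 most abundant sequences of each library, the leading sequence of each end class, and the 3 highest and 3 lowest ratios among sequences with at least 1000 reads. The members, lists and tests were chosen with earlier results of these data known.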

Additional observations from a re-analysis of the deposited data

Results flagged for a closer look

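Reads with 5.8S sequence also occurred in rows outside the 5.8S entry, at counts above the 3 that a count of 0 allows. Under other entries 1467 mouse and 125411 rat reads lay on the 5.8S sequence. Reads that carried further bases upstream of its 5′ end numbered 205 in mouse and 8442 in rat. The assembled sequence holds 5 bases upstream of base 1 and 24 past base 156, so reads reaching further were not counted. In rat 5560 of these carried 1 further base and 1753 carried 5, and in mouse 55 carried 1 and 76 carried 5, with fewer at 2 to 4 bases in both libraries. The leading rat read with 5 further bases, in capitals, had 323 reads and was chosen after its value was seen.
Rat, 5 bases upstream to base 38: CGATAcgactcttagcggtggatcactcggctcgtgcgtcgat
Reads that crossed the 3′ end were fewer, 11 in mouse and 296 in rat, of which 211 rat reads went 1 base beyond.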

How the results depend on the processing

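The higher 5.8S share in rat kept its direction under all 10 alternatives, with log2 ratios from 1.42 to 4.51. The value was 4.51 with every entry counted, 3.18 by distinct sequences, and 3.13 with the most abundant listed sequence left out of each total. Under settings chosen after seeing the data it was 1.42 within the stretch reached by mouse rows (bases 12 to 151), 1.42 for reads beginning past base 11, 2.03 for reads of at most 22 nt under every entry and 3.14 for reads of at most 45 nt. As a share of rRNA reads it moved from 3.12 to 3.99 with every entry and 2.88 by distinct sequences. The other alternatives, which kept exact reads or plus-strand rows or left out the leading 5.8S sequence, stayed within the counting interval. Bases 12 to 151 were not equally open to mouse reads of every length, so the values of 1.42 still carry part of the entry limit.

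The rat minus mouse difference in 5′-end reads under the entry, 68.0 percentage points, was 0 at a tolerance of 0 bases, since no row under the entry begins at base 1. It was 69.6 at 6 bases, 64.3 without the leading sequence and 30.3 by distinct sequences. In these settings the mouse share was 0 because the mouse entries hold no stretch there. The values are thus rat shares and not a comparison with mouse. The difference was 55.9 with every entry and 39.3 for reads of at most 22 nt under every entry. The 3′-end difference of 0.00909 points was 0.0393 at a tolerance of 6 bases, 0.102 by distinct sequences, 2.67 with every entry and 6.81 for reads of at most 22 nt. The stretches held by the mouse entries end at base 151, so the values under the entry carry that limit as well. Of 5.8S sequences, 64 of 67 were past 2-fold, compared with 327 of 367 at a minimum of 20 reads (289 higher, 38 lower) and 12 of 12 at 1000. Most listed sequences were past 2-fold as well: at 100 reads, 56.8% of all were higher and 30.5% lower. The share over all sequences was not counted at the other minima. Of the 60 higher ones, 49 had no mouse read and rest on the pseudocount. Of all 9067 listed sequences with at least 100 reads, 2458 had no mouse read.

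No paired analysis was possible because each species has 1 library. Of the mouse sequences under the entry, 7 had at least 100 reads, and a species difference cannot be told apart from the matched entries.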

Other observations

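Among the reads listed and placed here, single mismatches to the 5.8S sequence were few, and in rat the most frequent one was at the last base. Under the 5.8S entry, 97.03% of listed rat and 99.3% of listed mouse reads were exact to that sequence. These 2 shares are not comparable. Reads were listed at up to 2 mismatches to their entry, and 56.2% of mouse but 4.86% of rat reads already had 2. Reads under other entries were placed at up to 1 mismatch. How frequent mismatches were beyond these limits was not tested. Over reads under every entry, the change with the most rat reads was T156G, with the base of the 5.8S sequence first, in 356 of 12325 reads that cover base 156 (2.89%, 2.60 to 3.20). The next were T27G with 0.325% of 102763 reads, T34G with 0.501% of 53868 and T30G with 0.320% of 70055. In mouse the most frequent change, C35G, rested on 4 reads.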
